A study of Homo sapiens with 8 samples.

Results

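The genes of the proteasome were followed through the transcriptomes of 2 Ewing sarcoma cell lines, RD-ES and SK-N-MC. They were taken by symbol, as all genes named PSMA to PSMG followed by a number, which gave 48 of the 60332 genes in the table, each with 1 row. Of the 48, 46 had a mean of at least 1 FPKM (a level of RNA corrected for the length of the transcript and the size of the library) over the 8 libraries and were tested among 15175 genes.

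Each line gave 2 control and 2 eKD2 libraries of poly-A RNA, 8 in all. The eKD2 cells were infected with a lentivirus that carries dCas9-KRAB, a cutting-dead Cas9 joined to a repressor domain, together with a guide beside the GGAA repeat enhancer of LOXHD1. Per the labels, the control cells received the empty dCas9-KRAB virus, so they too carry the repressor, whereas the study's text speaks of parental cells. Infection was at a multiplicity of 10, with 1 µg/ml puromycin for 3 days and use within 5 passages. The cells were pools and not single clones, and 1 guide stands for the knockdown in these data. The study's methods call the libraries biological duplicates. The labels do not say whether they came from separate cultures, and p-values measure the spread between these libraries.

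The proteasome is the protease that breaks down proteins tagged with ubiquitin. Its barrel-shaped core is built from rings of alpha subunits (PSMA genes) around rings of beta subunits (PSMB genes), of which only PSMB5, PSMB6 and PSMB7 cut peptide bonds in most cells. A regulatory cap of ATPases (PSMC genes) and other subunits (PSMD genes) binds ubiquitin chains, unfolds the substrate and feeds it into the core. Interferon and blood cell identity bring in PSMB8, PSMB9 and PSMB10, which replace PSMB5, PSMB6 and PSMB7 in the immunoproteasome and change which peptides reach HLA class I molecules. PSME genes encode activators that open the core, PSMF1 an inhibitor, and PSMG genes chaperones that build it.

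LOXHD1, the targeted gene, was at 21.4 and 21.2 FPKM in the RD-ES controls and at 1.04 and 1.02 FPKM in the RD-ES eKD2 pair. SK-N-MC had 159 and 169 FPKM in its controls against 11.0002 and 11.953 FPKM in eKD2. The fall passed the test in both lines (log2 -3.46 and -3.73, limma adjusted p = 1.1e-04 and 3.7e-05). The 6 Ewing sarcoma markers looked at (CD99, FLI1, NKX2-2, STEAP1, PRKCB and NR0B1) were present in every library, at 2.38 FPKM or more. Of 5 blood cell markers (PTPRC, CD3E, CD14, LYZ and CD68), PTPRC was at 19.2 to 22.6 FPKM in the SK-N-MC libraries and at 0.0173 FPKM or less in RD-ES. CD68 lay between 0.642 and 1.27 FPKM in SK-N-MC and between 1.16 and 4.17 FPKM in RD-ES, CD14 did not exceed 0.759 FPKM in any library, CD3E was at 0 throughout, and LYZ was at 0 in RD-ES and at 0.271 FPKM or less in SK-N-MC. The number of reads is not given. Steps of whole reads among low values put the libraries at 0.578 to 2.32 times the depth of the first RD-ES control library, with the RD-ES eKD2 replicate 1 library the shallowest.

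The start regions of 6 genes are shown because the results turn on them: the 3 immunoproteasome subunits, and the cap genes PSMD6, PSMC1 and PSMD1. The windows run from 250 bases before to 50 after the RefSeq start (300 bases, GRCh38.p14, a later build than the GRCh37 of the expression table), written 5′ to 3′ in the gene's direction. Capitals mark matches, on either strand, to 4 motifs: TGACNNNGC (the antioxidant response element core, bound by NFE2L1 and NFE2L2 with small MAF proteins), CCAAT (bound by NF-Y), CCGGAAG (bound by ETS factors) and GAAANNGAA (the core of the interferon response element, bound by IRF factors).
PSMB8, chr6:32843998-32844297, minus strand: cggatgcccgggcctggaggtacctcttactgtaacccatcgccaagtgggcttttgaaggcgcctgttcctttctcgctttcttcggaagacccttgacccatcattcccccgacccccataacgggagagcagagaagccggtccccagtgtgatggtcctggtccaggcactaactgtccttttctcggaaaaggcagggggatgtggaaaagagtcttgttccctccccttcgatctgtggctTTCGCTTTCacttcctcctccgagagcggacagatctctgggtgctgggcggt
PSMB9, chr6:32853942-32854241, plus strand: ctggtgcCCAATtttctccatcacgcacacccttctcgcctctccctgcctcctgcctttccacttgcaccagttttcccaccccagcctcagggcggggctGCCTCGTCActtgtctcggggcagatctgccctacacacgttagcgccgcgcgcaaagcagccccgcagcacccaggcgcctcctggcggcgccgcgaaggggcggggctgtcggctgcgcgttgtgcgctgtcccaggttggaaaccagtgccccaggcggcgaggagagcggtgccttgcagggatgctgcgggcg
PSMB10, chr16:67936801-67937100, minus strand: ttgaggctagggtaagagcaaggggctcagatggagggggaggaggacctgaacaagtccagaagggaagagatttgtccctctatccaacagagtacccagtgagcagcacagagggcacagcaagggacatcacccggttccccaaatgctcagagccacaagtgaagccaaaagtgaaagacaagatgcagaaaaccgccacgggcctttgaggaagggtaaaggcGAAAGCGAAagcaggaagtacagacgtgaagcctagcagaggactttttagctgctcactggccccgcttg
PSMD6, chr3:64023445-64023744, minus strand: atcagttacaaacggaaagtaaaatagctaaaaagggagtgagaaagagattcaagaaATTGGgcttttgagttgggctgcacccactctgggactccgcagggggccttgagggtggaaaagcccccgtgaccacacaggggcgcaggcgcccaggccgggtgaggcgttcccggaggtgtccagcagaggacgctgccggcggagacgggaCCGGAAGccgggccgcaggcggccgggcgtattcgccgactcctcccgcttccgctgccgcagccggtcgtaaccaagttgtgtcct
PSMC1, chr14:90256303-90256602, plus strand: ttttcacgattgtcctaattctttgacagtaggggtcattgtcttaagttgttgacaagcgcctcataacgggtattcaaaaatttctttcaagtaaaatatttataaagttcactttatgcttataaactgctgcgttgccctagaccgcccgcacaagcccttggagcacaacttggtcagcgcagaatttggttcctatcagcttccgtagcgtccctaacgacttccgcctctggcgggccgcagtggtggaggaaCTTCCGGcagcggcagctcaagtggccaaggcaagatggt
PSMD1, chr2:231056617-231056916, plus strand: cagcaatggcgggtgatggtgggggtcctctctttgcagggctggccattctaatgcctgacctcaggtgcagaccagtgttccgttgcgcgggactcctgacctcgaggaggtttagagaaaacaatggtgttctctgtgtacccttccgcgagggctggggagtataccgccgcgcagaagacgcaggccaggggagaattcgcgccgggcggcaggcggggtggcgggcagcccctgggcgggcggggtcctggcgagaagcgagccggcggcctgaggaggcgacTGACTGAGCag

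GAAANNGAA stood in the windows of PSMB8 and PSMB10 and not in that of PSMB9, which held CCAAT and TGACNNNGC. PSMB8 has a further annotated start whose window held none of the 4 motifs. PSMD6 held CCAAT and CCGGAAG, PSMC1 held CCGGAAG and PSMD1 held TGACNNNGC. RefSeq windows were at hand for 42 of the 48 genes. Of these, 15 genes (35.7%) had a TGACNNNGC match, against 16.1% of all 27305 genes with a window, and 15 (35.7%) had CCGGAAG, against 12.2%. CCAAT was found for 20 genes (47.6% against 39.7%) and GAAANNGAA for 8 (19.0% against 9.86%). The GAAANNGAA genes also included both subunits of an interferon-induced activator, PSME1 and PSME2. The 27305 genes were not matched to the proteasome genes by level of expression or base content. A match describes these letters only, and binding was not measured here.

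Levels were high for most subunits, and medians differed between classes of subunit, although the ranges of core and cap subunits overlapped. In RD-ES control, the 14 subunits of the constitutive core had a median of 299.6 FPKM, from 152 FPKM for PSMB6 to 558 FPKM for PSMB4. The 17 cap subunits had a median of 138 FPKM, from 60.5 FPKM for PSMC6 to 478 FPKM for PSMD4, a ubiquitin receptor of the cap. The 4 chaperones of core assembly had a median of 54.6 FPKM and the 3 immunoproteasome subunits one of 16.1 FPKM. In SK-N-MC control the same order held for these classes, at 228, 116, 53.8 and 3.98 FPKM. The activators changed place. Their median of 127 FPKM in RD-ES control was above that of the core chaperones. In SK-N-MC control it was 51.7 FPKM, below them.

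PSMB4, a beta subunit without a cutting site, was the highest gene over the 8 libraries. It stood at 547 and 569 FPKM in the RD-ES controls, 527 and 550.3 FPKM in the RD-ES eKD2 pair, 248 and 242 FPKM in the SK-N-MC controls and 210.3 and 231 FPKM in the SK-N-MC eKD2 pair. It ranked 1 of the 48 in the RD-ES controls and 9 in the SK-N-MC controls, where PSMD2, a scaffold of the cap base, ranked 1. The tissue-specific subunits lay at the other end. PSMB11, the thymus subunit, was listed at 0 in all 8 libraries, and PSMA8, a testis subunit, reached 0.0532 FPKM at most. Both were left untested.

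**Figure D1:**
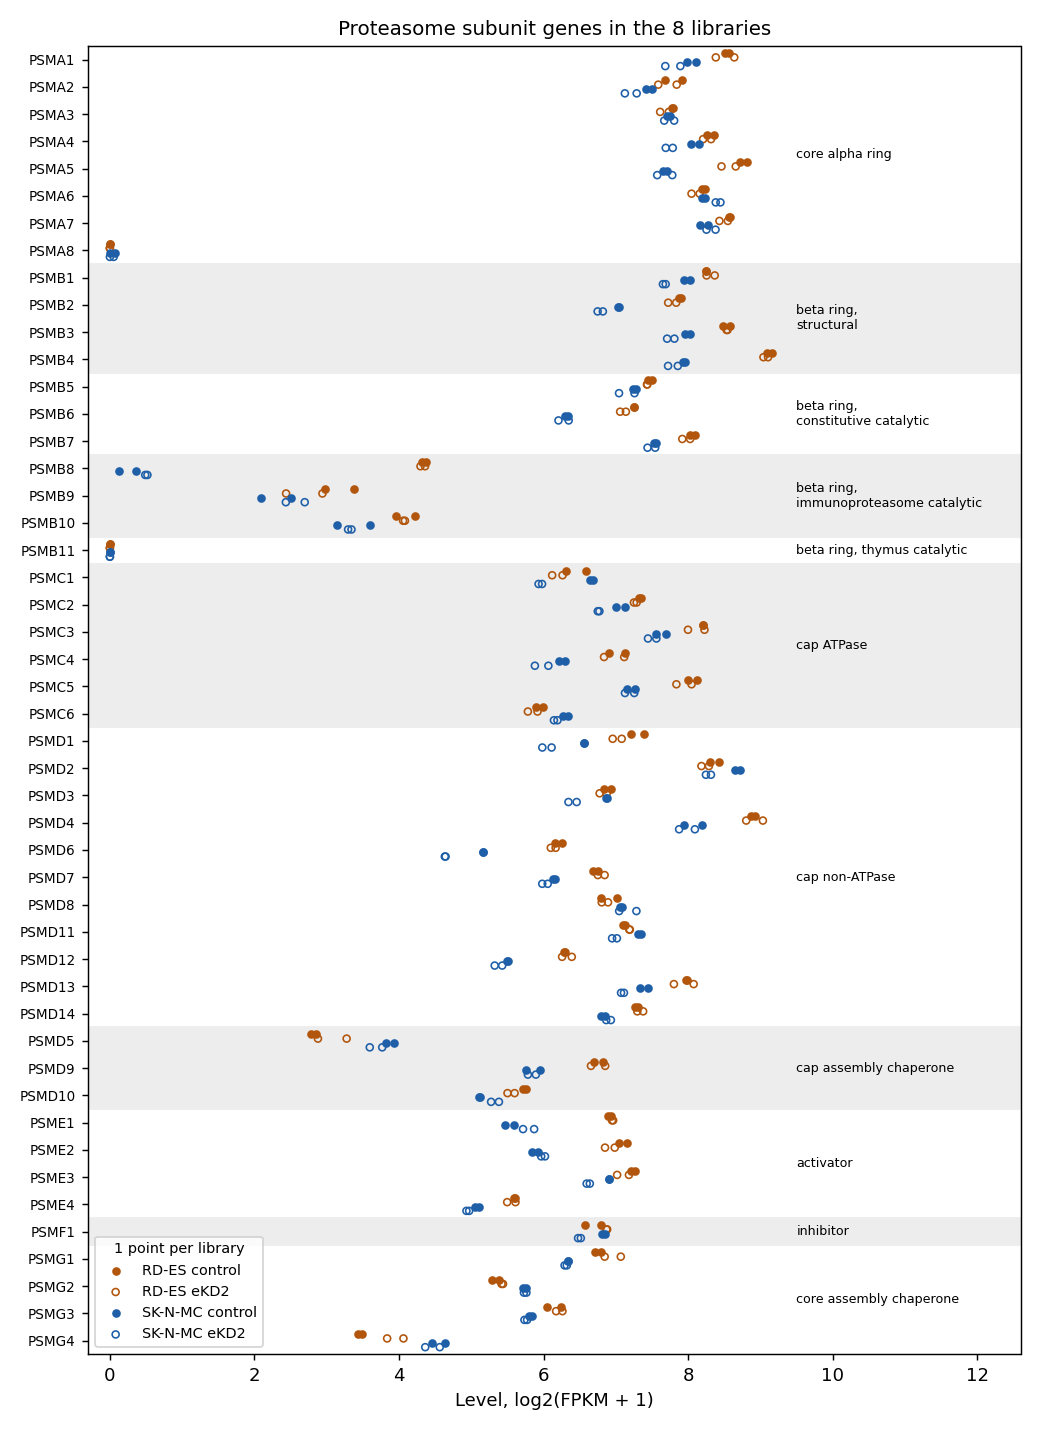
Level of each of the 48 genes as log2(FPKM + 1) (x axis), with 1 point per library (filled for control, open for eKD2, orange for RD-ES, blue for SK-N-MC) and grey bands setting the roles apart. The immunoproteasome subunits lie far left of the core subunits around them, PSMB8 is near 0 in SK-N-MC alone, and PSMA8 and PSMB11 sit at or near 0 in all libraries.

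The 48 genes are spread over 17 chromosomes, with 8 on chromosome 14, 7 on chromosome 17 and 4 each on chromosomes 1 and 6. PSMB8 (ENSG00000204264, chr6:32808494-32812456, minus strand, GRCh37) and PSMB9 (chr6:32811913-32827628, plus strand) lie in the HLA class II region and overlap at their ends. Because the library kit does not mark strand, reads from the shared bases cannot be assigned, and these make up 3.99% of the annotated exon bases of PSMB8. A larger overlap was that of PSMC1 (chr14:90722871-90741773, plus strand), where 76.1% of the annotated exon bases also belong to NRDE2 on the opposite strand, at a mean of 13.0 FPKM against 80.1 FPKM for PSMC1. PSMG4 shares 13.3% of its exon bases with SLC22A23 (3.82 FPKM) and 1.67% with TUBB2B (12.8 FPKM), both on the opposite strand. PSMB10 shares 39.4% with an overlapping coding gene at 1.26 FPKM. These percentages come from gene models of a later release than the study names, and may differ in the models it counted. Of 29 proteasome pseudogene rows, 0 reached a mean of 1 FPKM.

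The catalytic subunits answer how much of the immunoproteasome set each line transcribes. PSMB8, which takes the place of PSMB5, was at 19.0 and 19.6 FPKM in the RD-ES controls and at 19.5 and 18.7 FPKM in the RD-ES eKD2 pair. SK-N-MC held it at 0.288 and 0.0919 FPKM in control and at 0.404 and 0.433 FPKM in eKD2. All 4 RD-ES libraries thus lay far above all 4 SK-N-MC libraries. The control means, 19.3 ± 0.446 and 0.19 ± 0.139 FPKM (SD, n = 2 each), differed 102-fold. The size of this ratio is uncertain, because the SK-N-MC mean is near 0 and its 2 libraries differ. The eKD2 means were 19.1 and 0.418 FPKM. On the log2(FPKM + 1) scale, which understates changes at low levels, the difference was -4.10 (95% interval -4.39 to -3.81, limma adjusted p = 6.6e-06), and it was -6.15 with a pseudocount of 0.1. In bulk RNA, fewer cells with a transcript and less of it per cell cannot be told apart.

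PSMB9, the counterpart of PSMB6, was at 9.40 and 6.91 FPKM in the RD-ES controls, 4.42 and 6.68 in the RD-ES eKD2 pair, 3.25 and 4.71 in the SK-N-MC controls and 4.41 and 5.48 FPKM in the SK-N-MC eKD2 pair. Its control libraries did not overlap between the lines, but the eKD2 libraries did. PSMB10, the counterpart of PSMB7, was at 17.6 and 14.6 FPKM in the RD-ES controls, 15.9 and 15.6 in the RD-ES eKD2 pair, 7.82 and 11.1 in the SK-N-MC controls and 8.82 and 9.15 FPKM in the SK-N-MC eKD2 pair. Every RD-ES library was above every SK-N-MC library. Both were lower in the SK-N-MC controls than in the RD-ES controls, by log2 -0.88 for PSMB9 (limma adjusted p = 0.024) and -0.72 for PSMB10 (limma adjusted p = 0.012). These 2 calls were lost in part of the alternatives. Without RD-ES control replicate 1 the limma adjusted p was 0.13 for PSMB9 and 0.072 for PSMB10, without SK-N-MC control replicate 1 it was 0.13 for PSMB9, and without a filter on low values it was 0.14 and 0.071.

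The constitutive partners were far more abundant. PSMB5, the chymotrypsin-like subunit that clinical proteasome inhibitors bind, was at 173 and 179.9 FPKM in the RD-ES controls, 172 and 172 in the RD-ES eKD2 pair, 154 and 149.6 in the SK-N-MC controls and 131 and 152 FPKM in the SK-N-MC eKD2 pair. It was lower in both SK-N-MC control libraries than in both RD-ES control libraries, but the difference missed the threshold (log2 -0.22, limma adjusted p = 0.059). After scaling to equal medians it passed (log2 -0.36, limma adjusted p = 0.0054). An annotated miRNA gene at 863 FPKM shares 7.04% of the exon bases of PSMB5. PSMB6, the caspase-like subunit, was at 151 and 152 FPKM in the RD-ES controls, 132 and 140.03 in the RD-ES eKD2 pair, 79.8 and 77.6 in the SK-N-MC controls and 72.9 and 80.5 FPKM in the SK-N-MC eKD2 pair. PSMB7, the trypsin-like subunit, was at 259 and 272 FPKM, 241 and 260.2 FPKM, 188 and 184 FPKM, and 173 and 186 FPKM in the same order. Both were lower in the SK-N-MC controls than in the RD-ES controls (log2 -0.94 and -0.51, limma adjusted p = 1.3e-04 and 0.0012).

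**Figure D2:**
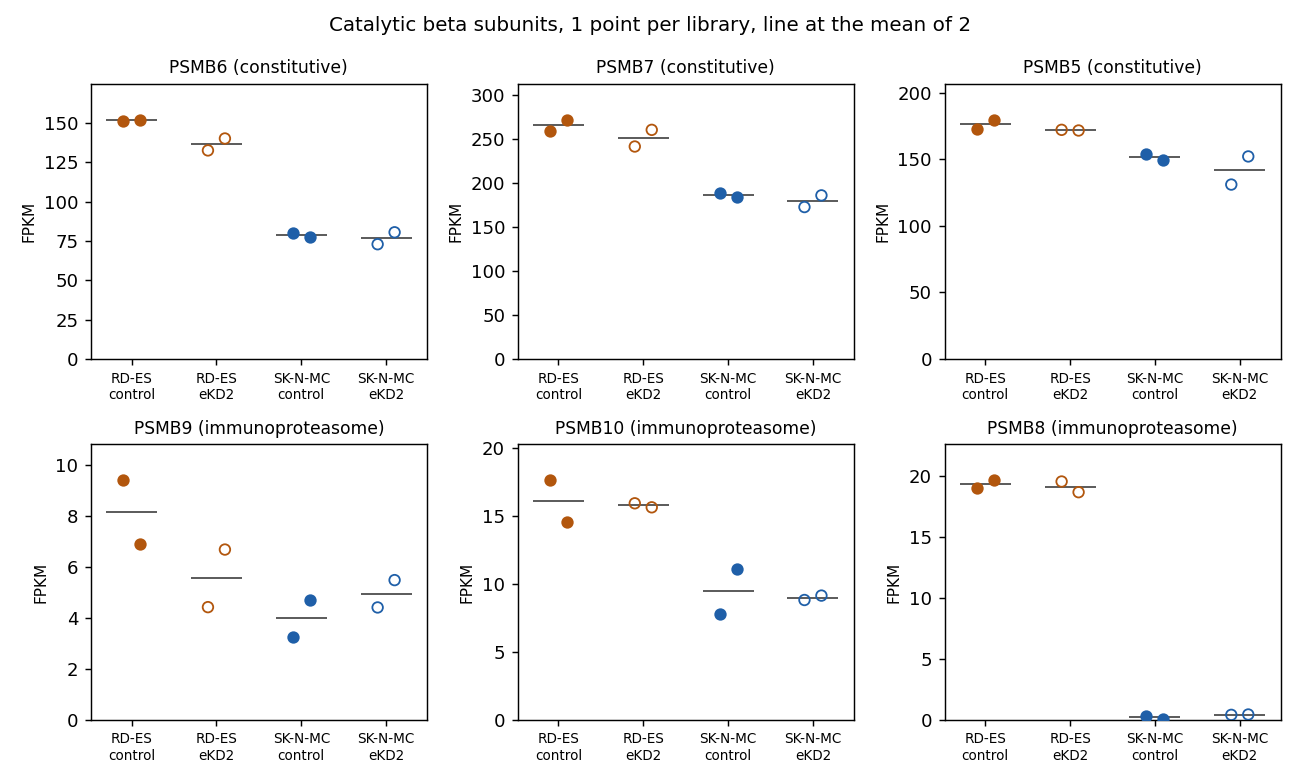
FPKM (y axis, from 0, scaled per gene) of the 3 constitutive (upper row) and 3 immunoproteasome (lower row) catalytic subunits, with 1 point per library and a line at the mean of each group of 2. PSMB8 lies between 18.7 and 19.6 FPKM in RD-ES and at or under 0.433 FPKM in SK-N-MC, and control and eKD2 points lie close together in most panels.

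Neither set of catalytic subunits passed the test for eKD2. In RD-ES the changes of PSMB8, PSMB9 and PSMB10 were log2 -0.016, -0.49 and -0.020 (limma adjusted p = 0.99, 0.49 and 0.99), and those of PSMB5, PSMB6 and PSMB7 were -0.038, -0.15 and -0.083 (limma adjusted p = 0.89, 0.45 and 0.65). For SK-N-MC they were 0.26, 0.27 and -0.050 (limma adjusted p = 0.44, 0.73 and 0.95) for the immunoproteasome subunits and -0.10, -0.039 and -0.054 (limma adjusted p = 0.66, 0.88 and 0.81) for their constitutive counterparts. PSMB9 was lower in both RD-ES eKD2 libraries than in both controls, and PSMB8 was higher in both SK-N-MC eKD2 libraries, all of them under 1 FPKM.

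The immunoproteasome share, the FPKM of PSMB8, PSMB9 and PSMB10 as a percent of the FPKM of all 6 catalytic subunits, was 7.32 and 6.37% in the RD-ES controls and 6.81 and 6.69% in the RD-ES eKD2 pair. In SK-N-MC it was 2.62 and 3.73% in control and 3.49 and 3.47% in eKD2. The 4 SK-N-MC libraries were all below the 4 RD-ES libraries, with means of 3.33 ± 0.486% and 6.80 ± 0.392% (SD, n = 4 each, two-sided exact permutation p = 0.0286, the smallest possible, and 0.0571 after Benjamini-Hochberg adjustment over the 4 shares compared). This test compares the libraries of these 2 lines. Each n of 4 pools 2 control with 2 eKD2 libraries, so the SD spans both treatments. The pairs differed from each other. PSMB8 was 9.94 ± 0.176% of PSMB8 plus PSMB5 for RD-ES and 0.21 ± 0.112% for SK-N-MC (SD, n = 4 each, exact permutation p = 0.0286, adjusted 0.0571). PSMB9 was 4.49 ± 1.08% of PSMB9 plus PSMB6 for RD-ES and 5.43 ± 1.06% for SK-N-MC, with overlapping libraries (exact permutation p = 0.314, n = 4 each). PSMB10 was 5.83 ± 0.582% of PSMB10 plus PSMB7 for RD-ES and 4.81 ± 0.706% for SK-N-MC (exact permutation p = 0.0857, n = 4 each, adjusted 0.114). The control and eKD2 shares differed by -0.0946 points for RD-ES and by 0.309 points for SK-N-MC. An exact test of 2 against 2 libraries cannot go below p = 0.333, and both values were within the spread of the control libraries (SD 0.666 and 0.783 points).

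**Figure D3:**
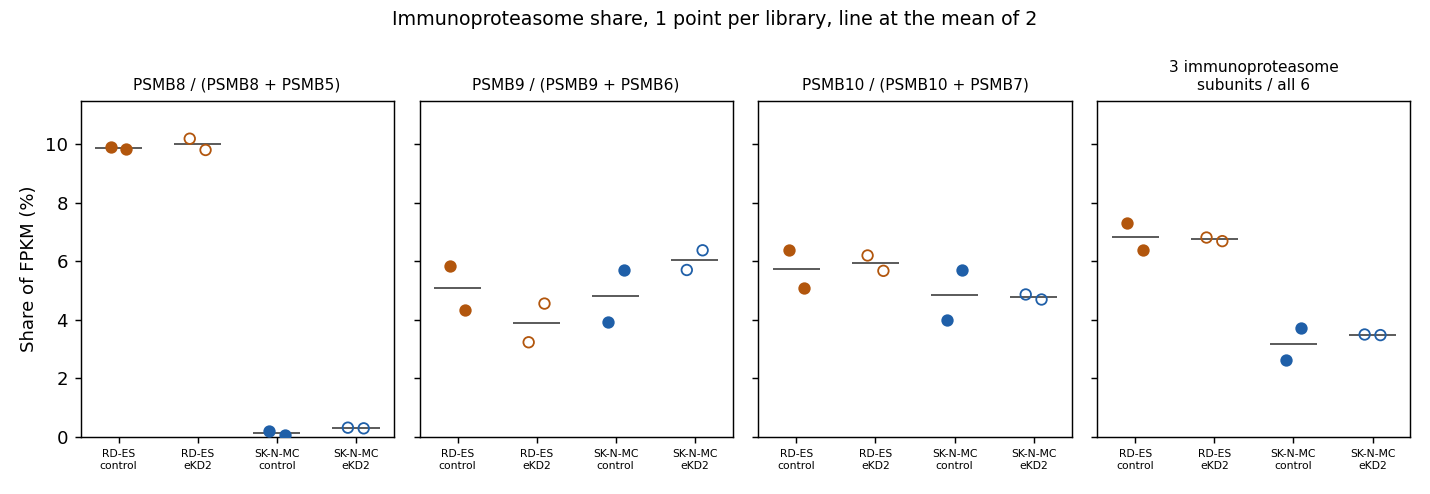
Share of FPKM in percent (y axis, from 0) for each immunoproteasome subunit beside its constitutive counterpart and for the 3 together, with 1 point per library and a line at the mean of each group of 2. The lines separate in the PSMB8 panel and in the summed panel, while the PSMB9 points of the lines overlap.

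Beyond the catalytic sites, most proteasome genes were lower in the SK-N-MC controls than in the RD-ES controls. Of the 46 tested genes, 31 (67.4%) were lower and 6 (13.0%) higher at a limma adjusted p under 0.05, where 26.4% of all tested genes were lower and 31.4% higher. The median difference over the 46 was -0.50 on the log2 scale, against 0.065 over all tested genes. Scaling each library to the same median shifted all genes by -0.11 in this comparison. Relative to all genes, the median of the 46 was -0.56 as deposited, -0.60 after this scaling and -0.40 after quantile normalization. All tested genes were not matched to the 46 by level. All 4 activators, all 4 structural beta subunits and all 3 immunoproteasome subunits were lower past the threshold, as were 2 of 3 constitutive catalytic subunits, 3 of 7 tested alpha subunits, 4 of 6 ATPases and 7 of 11 other cap subunits. The PTPRC level, which differs between the lines as given above, moves with this contrast, and its part in the result was not tested.

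PSME1, which forms the interferon-induced activator ring with PSME2, was at 121 and 117 FPKM in the RD-ES controls against 43.4 and 47.3 FPKM in the SK-N-MC controls (log2 -1.37, standard error 0.0786, limma adjusted p = 5.2e-05). The eKD2 libraries were at 124 and 122 FPKM in RD-ES and at 57.5 and 51.6 FPKM in SK-N-MC, so all 8 libraries separated by line. PSME2 was at 141 and 130.5 FPKM against 59.6 and 56.4 FPKM in control, and at 126 and 114 against 61.6 and 63.9 FPKM in eKD2 (log2 -1.21 in control, limma adjusted p = 7.6e-05). PSME3, the nuclear activator, and PSME4, an activator linked to histone degradation, differed less (log2 -0.34 and -0.52, limma adjusted p = 0.0078 and 0.0013).

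Among core subunits the differences were uneven. PSMB4 was 2.28-fold lower in the SK-N-MC controls by the means (log2 -1.18, standard error 0.0633, limma adjusted p = 4.2e-05). PSMA5 was at 449 and 418 FPKM in the RD-ES controls, 352 and 403 in the RD-ES eKD2 pair, 207 and 201 in the SK-N-MC controls and 189 and 219 FPKM in the SK-N-MC eKD2 pair (log2 -1.08 in control, limma adjusted p = 2.8e-04). PSMB2 was at 233 and 239 FPKM, 210.6 and 228 FPKM, 131 and 129 FPKM, and 107 and 112 FPKM in the same order (log2 -0.85, limma adjusted p = 1.2e-04). These 3 genes separated the lines in all 8 libraries. PSMA6 and PSMA3, from the same alpha ring as PSMA5, did not pass the test, with log2 differences of 0.0051 (95% interval -0.14 to 0.15) and -0.055 (95% interval -0.23 to 0.12).

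In the cap, PSMD6 had the smallest p. It was at 70.3 and 75.6 FPKM in the RD-ES controls and 34.8 and 34.8 FPKM in the SK-N-MC controls (log2 -1.05, standard error 0.0679, limma adjusted p = 8.1e-05). The deubiquitinase PSMD14 and the ubiquitin receptor PSMD4 were lower by log2 -0.46 and -0.83 (limma adjusted p = 0.0012 and 0.002). The genes higher in the SK-N-MC controls were PSMG4, PSMD5, PSMG2, PSMC6, PSMD2 and PSMD11, so that 3 of the 6 encode assembly chaperones. PSMG4 was at 10.3 and 9.76 FPKM in the RD-ES controls against 20.9 and 23.955 FPKM in the SK-N-MC controls (log2 1.09, limma adjusted p = 6.5e-04). PSMD5, a chaperone that holds part of the cap base apart until assembly, was at means of 6.03 ± 0.227 and 13.7 ± 0.849 FPKM (SD, n = 2 each, log2 1.06, limma adjusted p = 0.0016). The remaining chaperones PSMG1, PSMG3, PSMD9 and PSMD10 were lower (log2 -0.41, -0.33, -0.90 and -0.62).

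**Figure D4:**
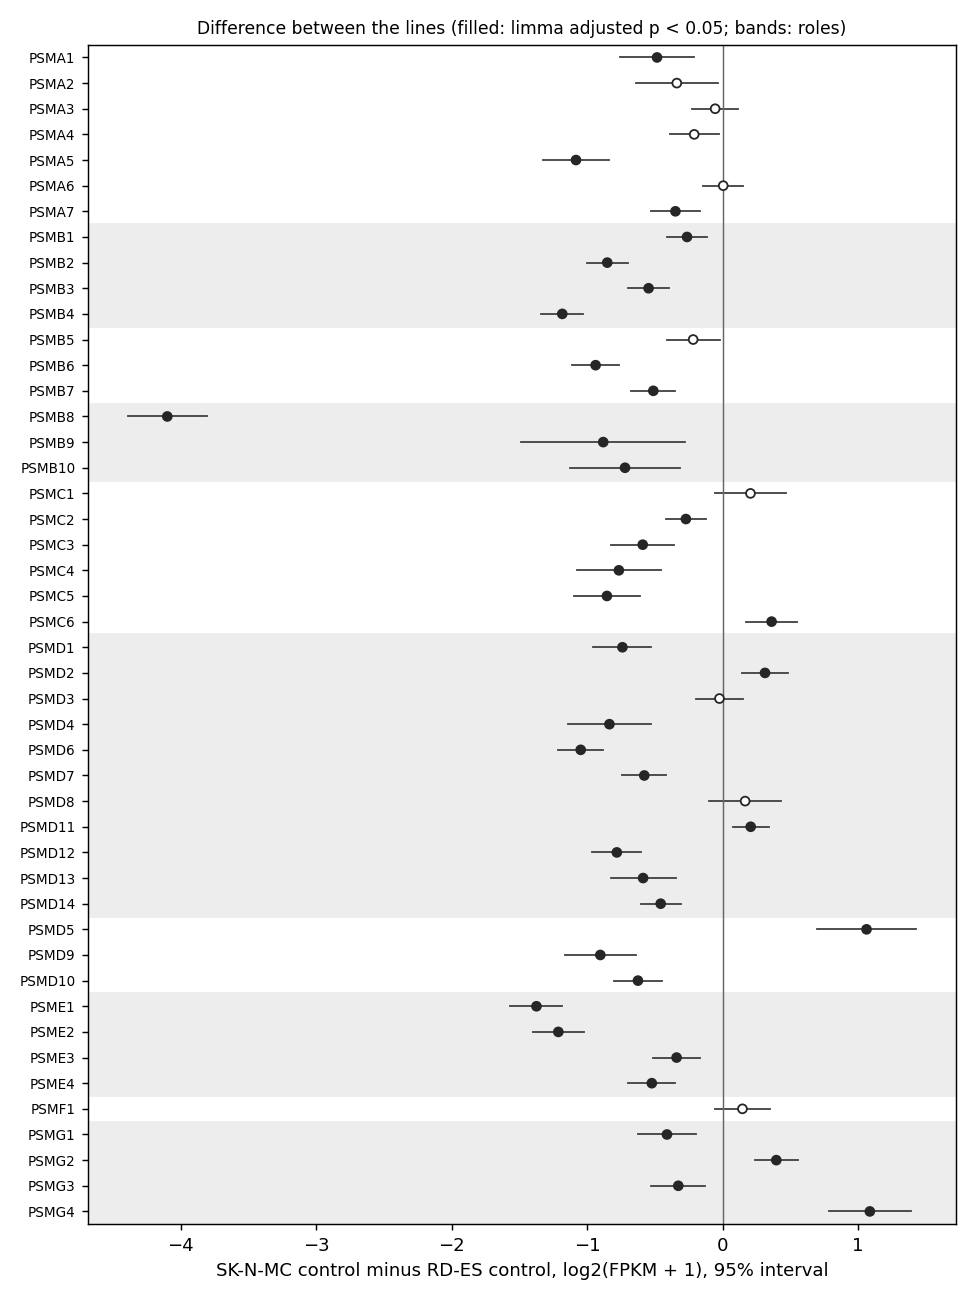
SK-N-MC control minus RD-ES control for the 46 tested genes on the log2(FPKM + 1) scale (x axis), with 95% intervals, points filled at a limma adjusted p under 0.05 and grey bands setting the roles apart. PSMB8 lies at -4.10, 31 filled points lie left of 0 and 6 right of it, with PSMG4 and PSMD5 farthest right.

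Genes that act with the immunoproteasome in antigen presentation were lower in SK-N-MC too. Of the 10 such genes reported here (TAP1, TAP2, TAPBP, B2M, HLA-B, HLA-C, NLRC5, IRF1, ERAP1 and CIITA, the last at 0.00338 FPKM or less and not tested), 7 of the 9 tested were lower in the SK-N-MC controls at a limma adjusted p under 0.05 and 0 were higher, with a median of -0.95, where 26.4% of all tested genes were lower and 31.4% higher with a median of 0.065. TAP1, the peptide transporter encoded beside PSMB9, was at 19.4 and 17.6 FPKM in the RD-ES controls and at 9.37 and 8.81 FPKM in the SK-N-MC controls (log2 -0.95, limma adjusted p = 2.6e-04). HLA-B was at 968 and 895 FPKM against 173 and 182 FPKM (log2 -2.39, limma adjusted p = 5.1e-06), although HLA genes share sequence and reads can be split between them. IRF1, a transcription factor of the interferon response, was at 5.92 and 7.24 FPKM against 2.56 and 1.51 FPKM (log2 -1.34, limma adjusted p = 0.0036). HLA-C and TAP2 did not pass the test (log2 -0.03 and -0.91, limma adjusted p = 0.84 and 0.098).

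In RD-ES, 0 of the 46 genes passed an adjusted p under 0.05 between eKD2 and control by limma, where 0.343% of all tested genes did. At an unadjusted p under 0.05, 1 (2.17%) was higher and 2 (4.35%) were lower, against 8.49% and 3.79% of all tested genes. Scaling each library to the same median turned this into 1 higher and 11 lower, and quantile normalization into 2 and 2. The shares of all tested genes then were 5.43% higher and 7.74% lower after median scaling, and 6.06% and 5.22% after quantile normalization. The number lower was 0 without RD-ES control replicate 1, 1 without either SK-N-MC control library, 3 without the shallowest library and 5 without RD-ES eKD2 replicate 2, and the number higher was 2 without RD-ES control replicate 2 and 3 without RD-ES eKD2 replicate 2. The 2 eKD2 libraries were both below the 2 controls for 15 genes (32.6%) and both above them for 8 (17.4%), where 15.1% and 24.2% of all tested genes did so. The median change of the 46 was -0.048, against 0.031 over all tested genes. A change below 0 was found for 32 of the 46 (69.6%), against 42.0% of all tested genes. All 7 tested alpha subunits and all 6 ATPases were below 0, with medians of -0.083 and -0.095, and the 4 core chaperones were above it, with a median of 0.15. The blood cell marker CD68 was at 1.16 and 1.85 FPKM in the controls against 2.49 and 4.17 FPKM in eKD2 of RD-ES, and CD14 at 0.159 and 0.215 against 0.759 and 0.506 FPKM, and their part in these values was not tested.

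PSMG4, a chaperone of early alpha ring assembly, had the smallest p in RD-ES. Its levels were 10.3 and 9.76 FPKM in the controls against 15.7 and 13.3 FPKM in eKD2 (log2 0.49, standard error 0.123, limma adjusted p = 0.23). Both eKD2 libraries were above both controls. In SK-N-MC the eKD2 libraries, at 22.7 and 19.6 FPKM, overlapped the controls (log2 -0.08). PSMD10, the chaperone gankyrin that is overproduced in liver cancers, was at 53.3 and 51.6 FPKM in the controls against 47.5 and 44.3 FPKM in eKD2 of RD-ES, and at 33.8 and 33.5 FPKM and 37.7 and 40.7 FPKM in SK-N-MC. It was thus lower in both RD-ES eKD2 libraries and higher in both SK-N-MC eKD2 libraries, with changes of log2 -0.19 and 0.21 (limma adjusted p = 0.39 and 0.31).

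For SK-N-MC, too, 0 of the 46 genes passed an adjusted p under 0.05 by limma, where 0.323% of all tested genes did. At an unadjusted p under 0.05, 14 (30.4%) were lower in eKD2 and 3 (6.52%) higher, against 7.29% and 5.71% of all tested genes. Both eKD2 libraries lay below both controls for 25 genes (54.3%) and above them for 6 (13.0%), where 25.1% and 22.2% of all tested genes did so. The median change of the 46 was -0.12, against -0.0049 over all tested genes. A change below 0 was found for 35 of the 46 (76.1%), against 51.1% of all tested genes. The cap subunits had a median of -0.28 with 15 of 17 below 0, and the constitutive core subunits one of -0.13 with 11 of 14 below 0. Of the 14 lower genes, 8 were among the 17 cap subunits and 4 among the 14 constitutive core subunits, and the others were the activator PSME3 and the inhibitor PSMF1. The number lower was between 12 and 16 in all alternatives, whereas the number higher was 1 without SK-N-MC control replicate 1 and 1 without SK-N-MC eKD2 replicate 1. The 3 higher genes were PSME1, PSMA6 and PSMD10.

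PSMD6, a non-ATPase subunit of the cap lid, had the smallest p. It was at 34.8 and 34.8 FPKM in the SK-N-MC controls and 24.02 and 23.8 FPKM in the SK-N-MC eKD2 pair, and its RD-ES libraries were at 70.3 and 75.6 FPKM in the controls against 70.9 and 67.6 FPKM in eKD2. The SK-N-MC means of 34.8 ± 0.0444 and 23.9 ± 0.126 FPKM (SD, n = 2 each) differed by log2 -0.52 (standard error 0.0679, limma adjusted p = 0.064), and the adjusted p was 0.041 when no filter on low values was set, within a range of 0.041 to 0.28 over the alternatives. The start window of PSMD6 is shown above with its CCGGAAG match 37 bases before the start. The 14 tested genes with such a match had a median SK-N-MC change of -0.128, against -0.136 for the 26 with a window but no match. At an unadjusted limma p under 0.05, 5 of the 14 and 8 of the 26 were lower. A part of the motif in the change was not tested.

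PSMC1, an ATPase of the cap whose exons overlap NRDE2, had the most negative change of the 46 genes. It was at 101.5 and 98.5 FPKM in the SK-N-MC controls and 62.1 and 60.0 FPKM in the SK-N-MC eKD2 pair (log2 -0.70, standard error 0.108, limma adjusted p = 0.097). The RD-ES libraries stood at 95.6 and 78.3 FPKM in the controls against 68.5 and 75.8 FPKM in eKD2 (log2 -0.26, limma adjusted p = 0.41). Both eKD2 libraries were below both controls in either line. Neither change passed the threshold.

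PSMD3 and PSMD11, scaffold subunits of the cap lid, followed by p. PSMD3 was at 115 and 116 FPKM in the SK-N-MC controls and 80.3 and 86.9 FPKM in the SK-N-MC eKD2 pair, against 114 and 122 FPKM and 109 and 116 FPKM in RD-ES (log2 -0.47 in SK-N-MC, limma adjusted p = 0.10). PSMD11 was at 157 and 161 FPKM and 128 and 123 FPKM in SK-N-MC, against 139 and 137 FPKM and 145 and 145 FPKM in RD-ES (log2 -0.34 in SK-N-MC, limma adjusted p = 0.11). Both genes separated control from eKD2 in SK-N-MC, and PSMD11 lay slightly above its controls in RD-ES.

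PSMD1, the scaffold on which the cap base is built, was the 1 gene lower at an unadjusted p under 0.05 in both lines. It was at 166 and 148 FPKM in the RD-ES controls and 123 and 134 FPKM in the RD-ES eKD2 pair, and at 93.7 and 93.3 FPKM in the SK-N-MC controls and 68.2 and 62.3 FPKM in the SK-N-MC eKD2 pair. Both eKD2 libraries were below both controls in each line, with changes of log2 -0.28 (95% interval -0.50 to -0.07) and -0.51 (95% interval -0.73 to -0.30), and neither passed the adjusted threshold (limma adjusted p = 0.30 and 0.12). The other genes lower at an unadjusted p in SK-N-MC were PSMD2, PSMB1, PSMC2, PSMA4, PSMF1, PSMB2, PSME3, PSMB3 and PSMD13, with log2 changes between -0.40 and -0.23. None of the 6 catalytic subunits was among them, and their changes in SK-N-MC lay between log2 -0.10 for PSMB5 and 0.27 for PSMB9.

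**Figure D5:**
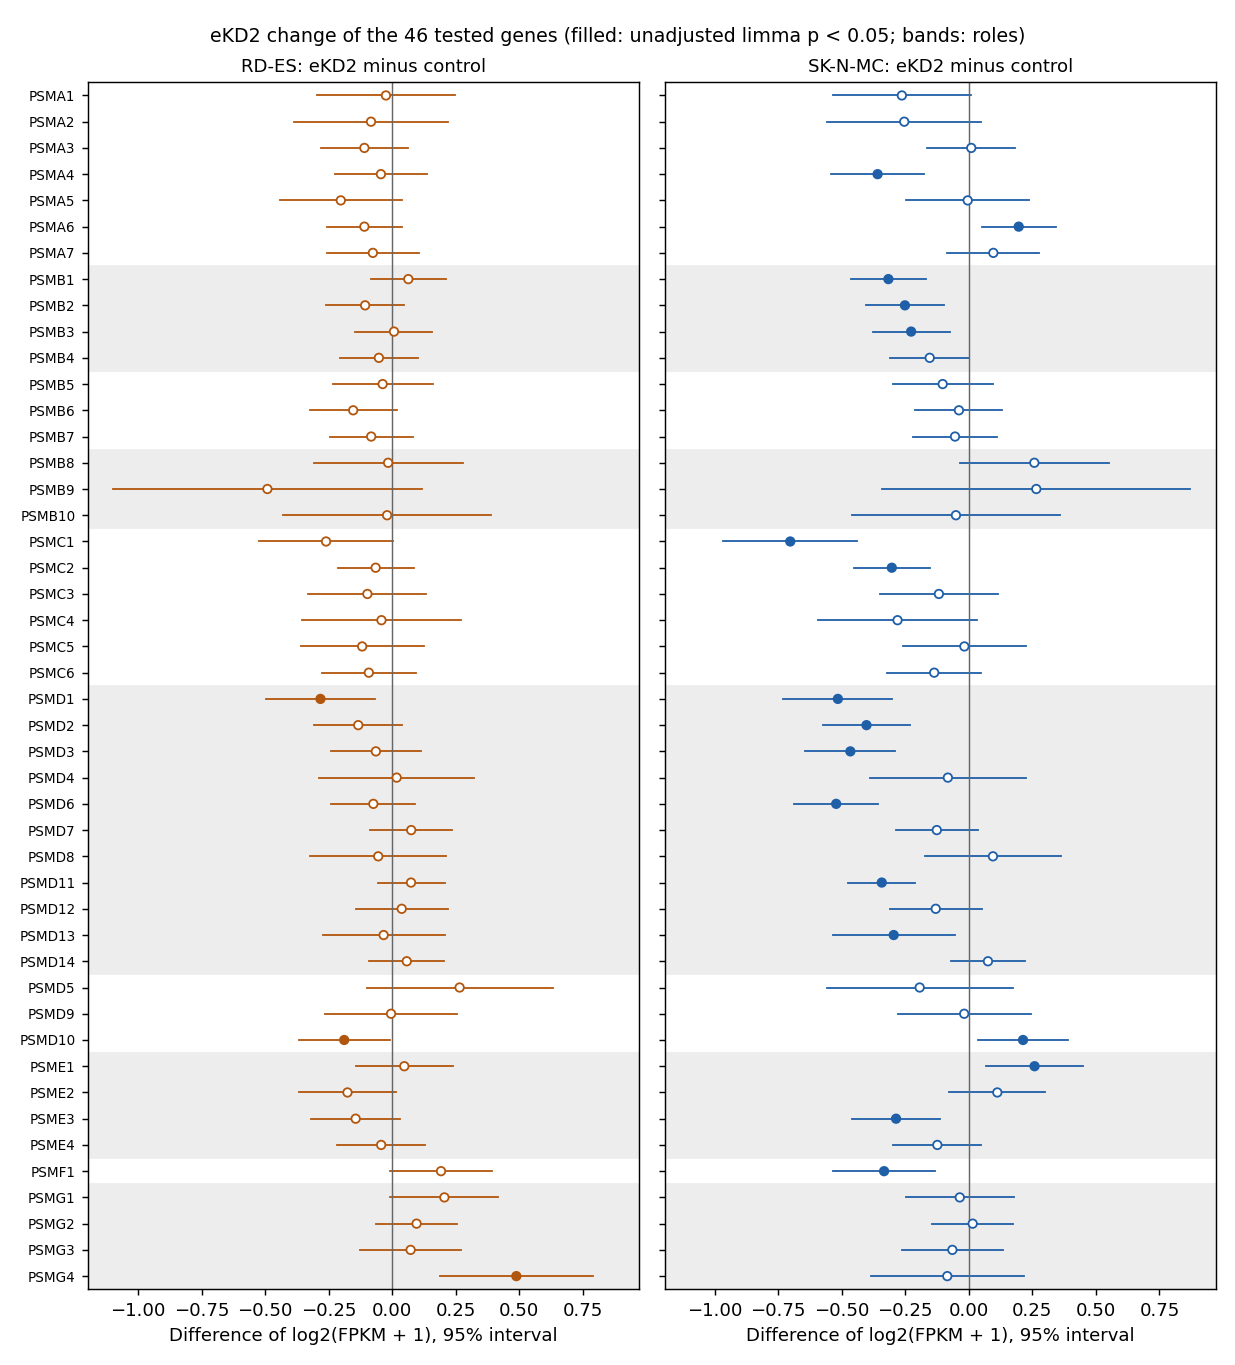
Change from control to eKD2 in RD-ES (left) and SK-N-MC (right) for the 46 tested genes, as the difference of log2(FPKM + 1) with 95% intervals (x axis), filled at an unadjusted limma p under 0.05 and with grey bands setting the roles apart. In RD-ES 3 points are filled, and in SK-N-MC 14 filled points lie left of 0, most of them among structural beta and cap subunits, and 3 right of it.

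The difference between the lines in the eKD2 change was tested directly. The control libraries used for the eKD2 changes are those of the comparison between the lines, so these comparisons are not independent. At an adjusted p under 0.05, 0 of the 46 genes differed by limma, where 0.244% of all tested genes did. At an unadjusted p under 0.05, the change was lower in SK-N-MC than in RD-ES for 11 genes (23.9%) and higher for 3 (6.52%), against 9.16% and 4.38% of all tested genes. After scaling to the same median these became 6 and 4, and after quantile normalization 11 and 2. The shares of all tested genes then were 5.67% lower and 7.29% higher after median scaling, and 7.04% and 5.40% after quantile normalization. Without SK-N-MC control replicate 1 or without SK-N-MC eKD2 replicate 1 the number lower was 7. The smallest p was that of PSMD11 (log2 -0.42, 95% interval -0.60 to -0.23, limma adjusted p = 0.15), followed by PSMD6 (log2 -0.45, limma adjusted p = 0.19), PSMF1 (log2 -0.53) and PSMB1 (log2 -0.38). PSMD10, PSMA6 and PSME2 stood on the other side (log2 0.40, 0.31 and 0.29, limma adjusted p = 0.23, 0.24 and 0.34). For PSMB8, PSMB9 and PSMB10 the differences were 0.27, 0.76 and -0.03, each with a 95% interval that holds 0.

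The genes around the proteasome were read from further lists. Of 24 partners and ubiquitin genes, 0 passed an adjusted p under 0.05 for eKD2 in either line by limma. At an unadjusted p under 0.05, 2 were higher and 3 lower in RD-ES, and 1 was higher and 4 lower in SK-N-MC, with medians of 0.008 and -0.056. Of all tested genes, 8.49% were higher and 3.79% lower in RD-ES, and 5.71% higher and 7.29% lower for SK-N-MC, so these few genes are read as values only. The smallest p in RD-ES was that of KIAA0368, an adaptor that holds cap and core together, at 57.7 and 56.4 FPKM in the controls against 41.6 and 46.4 FPKM in eKD2 (log2 -0.37, limma adjusted p = 0.19). RPS27A, a ribosomal protein fused to ubiquitin, was at 1398 and 1531 FPKM in the SK-N-MC controls and 1666 and 1652 FPKM in the SK-N-MC eKD2 pair (log2 0.18, limma adjusted p = 0.34). ZFAND5, a protein that stimulates the proteasome, had values of log2 -0.30 and -0.25 in the respective lines (limma adjusted p = 0.29 and 0.35), PAAF1, a cap assembly factor, one of 0.47 in RD-ES (limma adjusted p = 0.35), and the ubiquitin ligase UBE3C and the small cap subunit SEM1 ones of -0.32 and -0.20 for SK-N-MC (limma adjusted p = 0.34 each). Between the control groups, 9 of the 24 were lower and 5 higher in SK-N-MC, against 26.4% and 31.4% of all tested genes. Among those lower were UBB, a polyubiquitin gene (log2 -1.13), and ADRM1, a ubiquitin receptor of the cap (log2 -1.12), with limma adjusted p of 3.2e-04 and 6.7e-04. POMP, the chaperone that matures the core, was at means of 96.0 and 87.2 FPKM in the controls (log2 -0.14, limma adjusted p = 0.45).

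Of 8 regulators of proteasome genes, 0 passed the adjusted threshold for eKD2 by limma. It was passed by 0.343% of all tested genes for RD-ES and by 0.323% for SK-N-MC. At an unadjusted p under 0.05, NFE2L1 and NFE2L2 were higher in RD-ES, where 8.49% of all tested genes were higher. NFE2L2 was lower at that level for SK-N-MC, as were 7.29% of all tested genes. With 8 genes, these calls are read as values only. NFE2L1, the factor that raises proteasome genes when the proteasome is inhibited, was at 163 and 156 FPKM in the RD-ES controls, 181 and 181 in the RD-ES eKD2 pair, 171 and 182 in the SK-N-MC controls and 186 and 207 FPKM in the SK-N-MC eKD2 pair (log2 0.18 and 0.15, limma adjusted p = 0.40 and 0.45). NFE2L2, a related factor of the oxidative stress response, was at 52.0 and 53.8 FPKM in the RD-ES controls and 71.9 and 62.4 in the RD-ES eKD2 pair, but at 75.2 and 77.8 in the SK-N-MC controls and 57.2 and 60.7 FPKM in the SK-N-MC eKD2 pair. It lay above the RD-ES controls and below the SK-N-MC controls (log2 0.33 and -0.37, limma adjusted p = 0.24 and 0.20), and the difference between the lines missed the threshold as well (log2 -0.70, limma adjusted p = 0.14). DDI2, the protease that activates NFE2L1, was lower in the SK-N-MC controls than in the RD-ES controls (log2 -1.09, limma adjusted p = 4.4e-04), as were SYVN1 and MAFG, whereas NFE2L2 and MAFF were higher. The 15 proteasome genes with a TGACNNNGC match had a median eKD2 change of -0.042 for RD-ES and -0.12 for SK-N-MC, against -0.065 and -0.14 for the 25 tested genes with a window but no match.

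For antigen presentation, 0 of the 9 tested genes passed the adjusted threshold for eKD2 in either line by limma, where 0.343% and 0.323% of all tested genes did. Their medians were -0.095 in RD-ES and 0.0033 for SK-N-MC, against 0.031 and -0.0049 over all tested genes. At an unadjusted p under 0.05, 1 was lower in RD-ES (HLA-B, log2 -0.19, limma adjusted p = 0.30) and 0 were higher, and for SK-N-MC 0 were lower and 0 higher. HLA-B was at 968 and 895 FPKM in the RD-ES controls against 797 and 833 FPKM in eKD2, where both libraries lay below both controls. TAP1 was at 16.5 and 15.8 FPKM in the RD-ES eKD2 pair and at 8.82 and 8.58 FPKM in the SK-N-MC eKD2 pair (log2 -0.19 and -0.06, limma adjusted p = 0.44 and 0.85).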

How the data were processed

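Poly-A RNA was sequenced from 8 libraries (4 groups of 2) with a kit that does not mark strand, as single-end reads of 75 bases. The authors aligned the reads to GRCh37 with STAR (FastQC and Cuffnorm are also named in the processing notes) and deposited FPKM values per gene and library from cufflinks and cuffnorm. Read counts were not used here, so the study's count test (DESeq2) was replaced by limma 3.58.1 in R 4.3.3 (lmFit, eBayes with trend) on log2(FPKM + 1), with 4 groups in 1 fit, for the 15175 genes whose mean reached 1 FPKM, and Benjamini-Hochberg adjustment over them. limma was tested on simulated data. Depth was read from whole-read steps among genes under 0.3 FPKM. The modal ratio held for 15.2 to 21.2% of them, so it is rough, and no counting interval was given. Replicates correlated at r = 0.937 to 0.945 over genes, which are not independent.

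Members and lists were chosen with earlier results of these data known. Values in every library were given for PSMB5 to PSMB10, for members with an adjusted p under 0.05 (up to 8 per comparison by p), for the 4 members of smallest p for eKD2 in each line, for members with an unadjusted p under 0.05 in both lines, and for the highest and lowest member. From the lists, genes past the adjusted threshold or of smallest p were named, and part of the lists of antigen presentation genes and blood cell markers is not reported here. Shares were compared by two-sided exact permutation tests (scipy 1.17.1). Windows came from RefSeq and exon overlaps from GENCODE gene models on GRCh37. Their release is later than the one the study names, and they matched all 48 genes. Alternatives were a pseudocount of 0.1, no filter, a filter at 5 FPKM, median and quantile scaling, eBayes without trend, a replicate block, summed rows, separate fits and leaving out each library.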

Additional observations from a re-analysis of the deposited data

How the results depend on the processing

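No proteasome gene passed the adjusted threshold for eKD2 in RD-ES, or for the difference between the lines, under any alternative, and the 1 call in SK-N-MC (PSMD6) came without a filter on low values. In RD-ES, the number lower at an unadjusted p was 4 without a filter, 11 after median scaling, 1 without the trend and 0 to 5 with a library left out. The number higher was 2 after quantile normalization and 1 to 3 with a library left out. The median was -0.12 after median scaling and -0.066 to -0.031 with a library left out. In SK-N-MC, the median was -0.090 after quantile normalization and -0.15 to -0.087 with a library left out, and the number higher was 4 with a pseudocount of 0.1 or without a filter and 1 to 3 with a library left out. For the difference between the lines, the median was -0.10 without a filter, -0.036 after median scaling, -0.15 after quantile normalization and -0.14 to -0.092 with a library left out, and the number lower was 6, 7 without the trend, and 7 to 12 with a library left out. Between the controls, the median was -0.47 without a filter, -0.65 and -0.40 after median and quantile scaling, and -0.52 to -0.48 with a library left out. LOXHD1 in RD-ES lost its call when each line was fitted alone (log2 -3.46, limma adjusted p = 0.060), and its difference between the lines turned to 0.42 with a pseudocount of 0.1 (limma adjusted p = 0.26). With 1 library left out, signs turned for the eKD2 change of PSMB8 (-0.047 to 0.015) and PSMB10 (-0.15 to 0.11) in RD-ES, for PSMB5 (-0.21 to 0.0044), PSMB6 (-0.11 to 0.032) and PSMB10 (-0.28 to 0.18) in SK-N-MC, and for the immunoproteasome share (-0.566 to 0.376 points for RD-ES, -0.245 to 0.863 points for SK-N-MC). The causes were not tested.

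Replicate numbers are shared between groups, but deviations of same-numbered libraries hardly correlated (r = 0.056 for RD-ES, 0.027 for SK-N-MC), so the pairing is not established. With the replicate block, 2 genes were higher in RD-ES, 16 were lower in SK-N-MC, and 39 differed between the controls.

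Read numbers were not known, which limits what can be said of genes near 0, such as PSMB8 in SK-N-MC. A group of 2 libraries allows no check of 1 library by the others.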
